A study of Mus musculus with 43 samples.

Results

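Across the mouse genome, 38991 of the 165184 regions of open chromatin in the female table and 48852 of the 192919 in the male table lay between genes but near to them. Each of these intergenic near-gene regions was autosomal, was narrower than 3000 bases and overlapped no gene of the female RNA table. Its edge was more than 1 kb and at most 100 kb from the nearest gene start. The regions came from ATAC-seq, in which a transposase inserts sequencing adapters wherever DNA is accessible, and are given in mm10 coordinates as they stand in the tables. The nuclei were those of frontal cortex neurons of wild-type Swiss Webster mice aged 2 months, fixed and sorted by the neuronal nuclear protein NeuN. From weaning at postnatal day 25 the mice lived in enriched cages (EE), which were larger and held a wheel, tubing, nesting and changing toys, or in standard housing (SH) with bedding and a single nestlet. There were 3 EE and 3 SH female ATAC libraries, 6 EE and 7 SH male ATAC libraries, and 6 EE and 6 SH nuclear RNA libraries of each sex.

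Accessible DNA outside genes and away from their starts holds many of the enhancers, sites where transcription factors bind and raise the activity of genes at a distance. In neurons such sites take part in the response to activity, in which immediate early genes such as Fos and Arc are switched on within minutes and their products act in turn on later genes. Nearness to a gene start does not show which gene a region acts on.

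The sorted nuclei carried neuronal RNA: Rbfox3, which encodes NeuN, ran from 1574 to 2268 CPM (counts scaled to library size) over the 24 RNA libraries. Astrocyte Gfap ran from 0.481 to 7.77 CPM and oligodendrocyte Mog from 0.410 to 7.22 CPM in the same libraries. Another oligodendrocyte gene, Mbp, was not low: it ran from 70.4 to 212 CPM, above Gad1 of GABAergic neurons (16.9 to 54.3 CPM). ATAC libraries held 19.1 to 26.3 M counts in females and 27.7 to 73.8 M in males. The 2 sexes were run apart, by the names in the tables, and counted over separate region sets: a difference by sex and a difference by run cannot be told apart. The labels do not state that libraries of a group came from separate animals, so every p-value measures the spread between these libraries. In sorted nuclei in bulk, a smaller share of nuclei of 1 neuron type and lower accessibility in each nucleus cannot be told apart.

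Some of the regions hold the start of an RNA that RefSeq lists and the RNA table does not overlap. A whole RefSeq start window, running from 250 bases before a start to 50 bases after it on GRCm38.p6, lay inside 195 female and 348 male regions. The 250 bases before the start are printed 5′ to 3′ for 4 of those, shown because they let the DNA of regions described below be read. Gm19497 (chr1:134060948-134061197, minus strand) lies in the most accessible region near Btg2. Gm34455 (chr17:26504348-26504597, minus strand) lies in a region 3.03 kb from the start of Dusp1. Cistr (chr15:102746910-102747159, minus strand) and Gm41309 (chr15:38602287-38602536, minus strand) lie in regions with lower values in female EE, and were picked after those values were seen. The bases before Btg2 (chr1:134079156-134079405) and Dusp1 (chr17:26508473-26508722), both on the minus strand, are given as examples of gene starts beside which regions are described. Capitals mark matches to the motifs named after the sequences.
Gm19497: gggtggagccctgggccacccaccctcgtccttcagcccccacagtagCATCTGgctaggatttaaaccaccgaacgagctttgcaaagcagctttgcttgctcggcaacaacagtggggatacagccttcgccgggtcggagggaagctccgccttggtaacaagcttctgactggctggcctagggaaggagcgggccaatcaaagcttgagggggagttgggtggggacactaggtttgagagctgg
Gm34455: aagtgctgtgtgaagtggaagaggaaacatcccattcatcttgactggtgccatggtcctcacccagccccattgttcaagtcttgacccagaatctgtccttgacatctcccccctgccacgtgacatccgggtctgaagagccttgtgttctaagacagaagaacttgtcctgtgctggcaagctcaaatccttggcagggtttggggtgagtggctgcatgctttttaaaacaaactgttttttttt
Cistr: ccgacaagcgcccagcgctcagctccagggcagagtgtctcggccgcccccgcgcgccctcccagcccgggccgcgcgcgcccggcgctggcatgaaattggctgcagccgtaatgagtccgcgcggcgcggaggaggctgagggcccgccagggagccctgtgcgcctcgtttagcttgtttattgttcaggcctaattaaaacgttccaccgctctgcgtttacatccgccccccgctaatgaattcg
Gm41309: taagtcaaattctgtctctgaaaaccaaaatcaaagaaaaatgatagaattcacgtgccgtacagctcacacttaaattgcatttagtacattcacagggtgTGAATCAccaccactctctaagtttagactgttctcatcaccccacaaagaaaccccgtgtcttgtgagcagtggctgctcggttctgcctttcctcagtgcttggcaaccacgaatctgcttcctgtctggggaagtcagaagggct
Btg2: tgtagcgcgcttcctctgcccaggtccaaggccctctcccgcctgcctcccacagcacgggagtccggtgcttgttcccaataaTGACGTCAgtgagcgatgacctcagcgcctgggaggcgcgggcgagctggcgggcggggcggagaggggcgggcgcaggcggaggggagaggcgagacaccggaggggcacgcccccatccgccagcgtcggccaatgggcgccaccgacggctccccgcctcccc
Dusp1: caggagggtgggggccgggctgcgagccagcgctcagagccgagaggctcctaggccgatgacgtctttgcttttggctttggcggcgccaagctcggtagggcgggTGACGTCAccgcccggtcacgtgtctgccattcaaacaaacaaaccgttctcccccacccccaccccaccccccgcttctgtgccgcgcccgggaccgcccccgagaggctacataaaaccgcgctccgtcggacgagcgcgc

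Both strands of each window were searched for 4 motifs, none of which contains another: TGANTCA (AP-1, bound by Fos and Jun proteins), TGACGTCA (the cyclic AMP response element, CRE), GCGTGGGCG (EGR) and CAGATG (an E-box). Gm41309 held an AP-1 match, Gm19497 an E-box, and the bases before Btg2 and Dusp1 a CRE each. The bases before Fos, Npas4 and Nr4a1, also searched but not printed, held none of the 4 motifs. The AP-1 letters were in 14.8% of the 216 windows inside female regions and 11.8% of the 390 inside male regions, against 7.81% of all 32851 RefSeq windows. The E-box was in 24.5% and 25.9% of the windows inside regions and 17.2% of all. The CRE, by contrast, was in 0 of 216 and 1 of 390 windows, against 1.79% of all, and the EGR letters were in 0 of both, against 0.612% of all. The windows inside regions and all RefSeq windows were not matched for base composition, accessibility or distance to gene starts. These are counts of letters and show no binding.

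The female intergenic near-gene regions had a median width of 415 bases (5th to 95th percentile 146 to 1374.5) and the male ones 731 bases (277 to 1955). Their median accessibility, scaled for library and region width, was 7.85 CPM per kb in females and 3.41 in males, compared with 9.34 and 4.48 at promoter regions (within 1 kb of a gene start) of the same tables. The female median was 6.91 inside genes and the male 2.87. Of the regions tested, 61.8% in females and 60.6% in males were upstream of the nearest gene. The rule favours this, since it leaves out gene bodies, which lie downstream of starts. In females 5634 were upstream and 1643 downstream at 1 to 5 kb, and 3392 and 2959 at 50 to 100 kb. The nearest start was that of a protein-coding gene for 37.6% of female and 32.2% of male regions. The regions had 14431 different nearest genes in females and 16082 in males.

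Intergenic near-gene regions took a larger share of each female EE library than of any female SH library. The share was 18.2%, 18.8% and 18.4% in EE replicates 1 to 3 and 17.9%, 17.2% and 17.4% in SH replicates 1 to 3, with means of 18.5 ± 0.297% and 17.5 ± 0.373% (SD, n = 3 each). In males the groups overlapped: the lowest, median and highest shares were 17.1%, 17.9% and 18.2% in EE and 17.1%, 17.5% and 18.3% in SH. Male EE replicate 3 had the lowest male share and SH replicate 6 the highest, and the SD within a male housing group (0.416 in EE, 0.405 in SH) exceeded that within either female group. Gene deserts, over 100 kb from any start, also took a larger share of each female EE library (2.14% to 2.29%) than of any female SH library (1.83% to 2.04%).

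**Figure D1:**
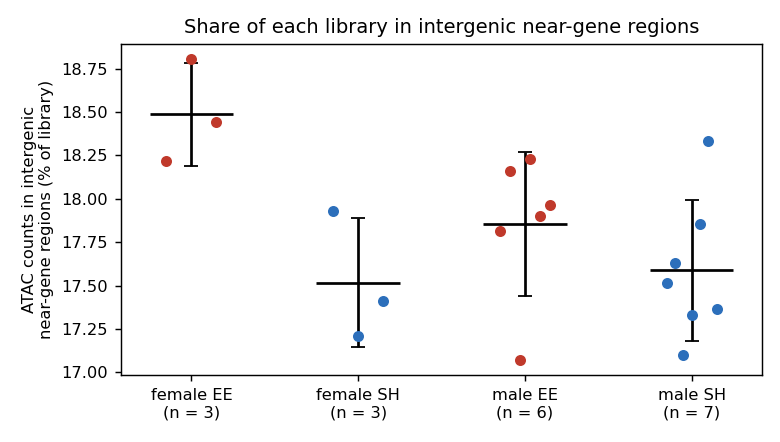
Percent of the ATAC counts of each library (y axis, not starting at 0) in intergenic near-gene regions, by table and housing (x axis); points are libraries, bars the mean and SD. The female EE libraries (18.2% to 18.8%) lie above the SH libraries (17.2% to 17.9%), and the male groups overlap.

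The female difference grew with distance from the gene start. The log2 fold change of EE over SH, positive where EE is higher, had a median of -0.017 over 7277 regions 1 to 5 kb from a start. It was 0.037 at 5 to 10 kb, 0.058 at 10 to 25 kb, 0.094 at 25 to 50 kb and 0.14 at 50 to 100 kb (6351 regions). The classes on either side of these limits went further in the same order: promoter regions had a median of -0.060 and gene deserts, over 100 kb from any start, 0.19. In males the medians ran from 0.0080 at 1 to 5 kb to 0.028 at 50 to 100 kb. Over all distances the median was 0.061 in females and 0.021 in males, beside -0.011 and -0.0010 over all regions tested. These medians depend on the scaling: with libraries scaled on the intergenic near-gene regions alone they were -0.0083 and -0.0020.

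Single libraries differed most at the largest distance in both tables. At 50 to 100 kb the median log2 level against the mean of all libraries was 0.068, 0.14 and 0.046 in female EE replicates 1 to 3 and -0.0085, -0.060 and -0.11 in SH replicates 1 to 3. In males it ran from -0.094 (replicate 3) to 0.086 (replicate 4) in EE and from -0.064 (replicate 3) to 0.14 (replicate 6) in SH. The SD between replicates of a group, from the nearest to the farthest distance, was 0.029, 0.0092, 0.017, 0.036 and 0.050 in females and 0.014, 0.011, 0.021, 0.042 and 0.068 in males, so it was smallest at 5 to 10 kb. At 50 to 100 kb the female gap of 0.14 was larger than the SD, and the male gap of 0.028 smaller.

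**Figure D2:**
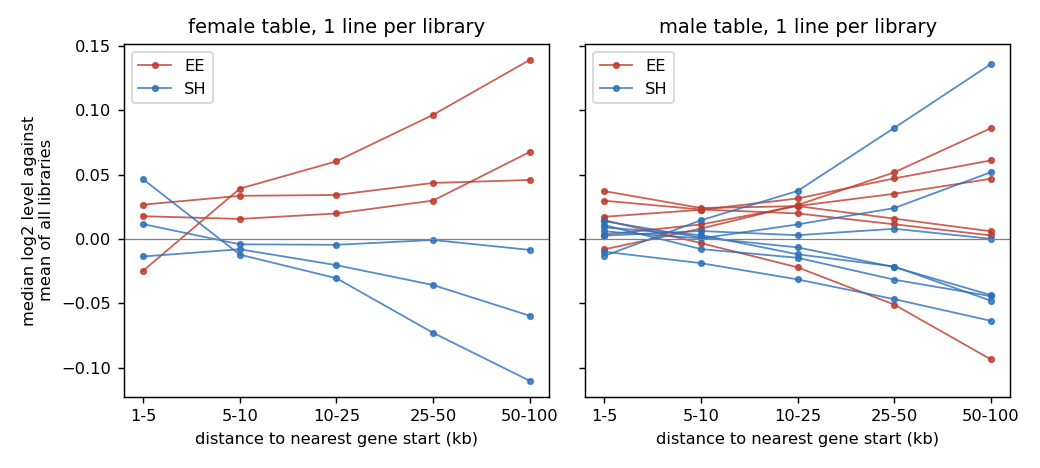
Median log2 level of intergenic near-gene regions in each library against the mean of all libraries of its table (y axis) by distance to the nearest gene start in kb (x axis); 1 line per library. At 50 to 100 kb the female EE lines end between 0.046 and 0.14 and the SH lines between -0.11 and -0.0085, whereas male EE and SH lines are mixed.

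In females, 36 of the 38870 regions that passed the count filter were called at an adjusted p under 0.05 in edgeR's quasi-likelihood test with Benjamini-Hochberg adjustment over the whole table. That was 0.0926% of them, against 0.0473% of all 164926 regions tested. Of the 36, 32 rose in EE and 4 fell (over all regions 0.0346% rose and 0.0127% fell). At an unadjusted p under 0.05 there were 3945 regions (10.1%, against 8.0% of all and 16.5% of gene deserts), 3066 of them higher and 879 lower. The calls lay on 14 chromosomes, at a median of 25.0 kb from the nearest gene start, and 29 of them were over 10 kb away. All 36 had groups that did not overlap, as did 12.8% of all regions tested, but a choice by p favours such groups. The count depended on single libraries. Leaving out EE replicates 1, 2 and 3 in turn gave 63, 13 and 12 calls, and leaving out SH replicates 1, 2 and 3 gave 133, 10 and 9. Over all regions the calls in the same fits, in place of 78, were 166, 26 and 24 and then 333, 22 and 28. Direction was kept for all 36 in these 6 fits, but only 4 regions were called in each of them: those near Gm23648, Gm24968, Gm38509 and Tas2r118.

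Those 4 regions all rose in EE. The first lies on chromosome 6 at 18628441 to 18629049, 98.2 kb upstream of the start of the predicted gene Gm23648, and the nearest protein-coding start is that of Cttnbp2, a cortactin-binding protein of dendritic spines, at 113.6 kb. It had 9.02, 9.48 and 7.54 CPM in EE replicates 1 to 3 and 1.83, 1.56 and 2.05 CPM in SH, a log2 fold change of 2.25 ± 0.21 (SE; adjusted p = 8.3e-12, edgeR). Every EE library was thus far above every SH library. The second, on chromosome 16 at 71108578 to 71109737 and 65.2 kb from Gm24968, had 13.6, 9.48 and 8.67 CPM in EE and 4.34, 3.93 and 4.93 CPM in SH. Its log2 fold change was 1.26 ± 0.18 (adjusted p = 3.2e-05, edgeR), and EE replicate 1 stood highest.

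A region on chromosome 3 at 34748191 to 34748721, 23.4 kb upstream of Gm38509, had 3.67, 3.37 and 3.85 CPM in EE and 1.04, 1.24 and 0.785 CPM in SH. The nearest protein-coding start, 97.8 kb away, is that of Sox2, a transcription factor of neural stem cells. The log2 fold change was 1.83 ± 0.28 (adjusted p = 0.00025, edgeR). The fourth region was 2.197 kb downstream of the start of Tas2r118, a bitter taste receptor gene, on chromosome 6 at 23966507 to 23967863. It was even within groups, with 27.7, 27.6 and 29.1 CPM in EE and 16.9, 17.6 and 18.02 CPM in SH (log2 fold change 0.69 ± 0.11, adjusted p = 0.0013, edgeR).

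The other higher regions named by p, near Gm35326, Gm29346, Gm18921 and Mir680-3, had log2 fold changes of 0.89, 1.04, 1.10 and 1.03. Each lost its call when some library was left out. Near Gm35326 the adjusted p was 0.061 with EE replicate 3 omitted. Near Gm18921 it was 0.11 with EE replicate 3 and 0.071 with SH replicate 2 omitted, and near Mir680-3 it was 0.057 and 0.099 in the same fits. Near Gm29346 it was 0.076, 0.099 and 0.059 with EE replicate 2, SH replicate 2 and SH replicate 3 omitted. All 32 regions that rose had log2 fold changes between 0.55 and 2.25. The nearest starts to them were mostly those of predicted genes. Rapgef5, an exchange factor for small G proteins, was among the named genes, with a region 33.1 kb upstream (log2 fold change 0.79 ± 0.15). It was picked after its values were seen, and was called in 3 of the 6 fits that omit a library, with an adjusted p of up to 0.23 (edgeR).

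Of the 4 regions that fell, 2 lay beside immediate early genes. The region upstream of Arc, whose product acts at synapses in the removal of glutamate receptors, spans 74675230 to 74678024 on chromosome 15, with its nearer edge 2.66 kb from the gene start. It had 22.5, 20.0 and 21.3 CPM in EE and 27.5, 28.5 and 36.1 CPM in SH, and SH replicate 3 was highest. The log2 fold change was -0.53 ± 0.11 (adjusted p = 0.032, edgeR). Omitting EE replicate 2 or 3 brought the adjusted p to 0.27 or 0.16, and omitting SH replicate 2 or 3 brought it to 0.070 or 0.46.

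The region 4.04 kb downstream of the start of Btg2, an antiproliferative gene induced by activity, spans 134074171 to 134075083 on chromosome 1, past the end of the gene. It had 3.29, 4.53 and 3.02 CPM in EE and 5.38, 6.03 and 10.1 CPM in SH, again highest in SH replicate 3. The log2 fold change was -0.99 ± 0.21 (adjusted p = 0.035, edgeR). Without SH replicate 3 it was -0.66 with an adjusted p of 0.54, and it was 0.084, 0.20 and 0.094 with EE replicate 1, EE replicate 3 and SH replicate 2 omitted.

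The region 33.2 kb from the start of C2cd4a had 1.10, 1.05 and 1.09 CPM in EE and 2.67, 1.94 and 4.10 CPM in SH (log2 fold change -1.43 ± 0.30, adjusted p = 0.026, edgeR). The adjusted p was 0.45, 0.15 and 0.10 with SH replicate 3, EE replicate 2 and EE replicate 3 omitted. The region 17.1 kb upstream of Gm34583 had 7.88, 6.97 and 7.35 CPM in EE and 13.2, 10.3 and 12.6 CPM in SH (log2 fold change -0.71 ± 0.15, adjusted p = 0.035, edgeR). Its call held without EE replicate 1, where the adjusted p was 0.034, and was lost without any other library, the highest adjusted p being 0.22.

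**Figure D3:**
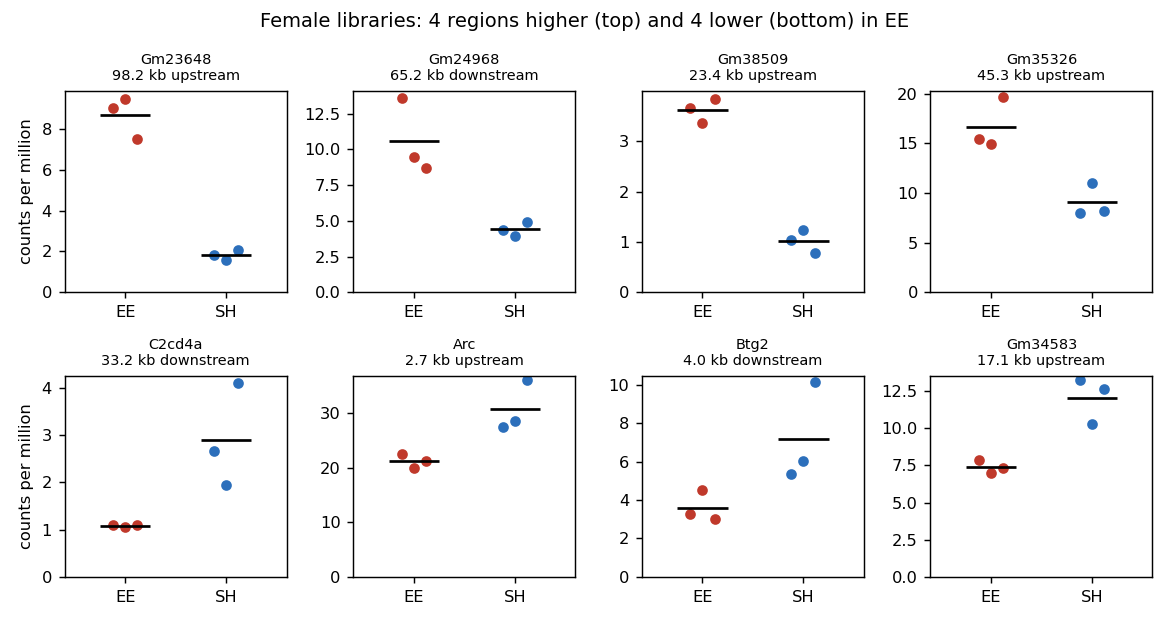
CPM in each female ATAC library (y axis, from 0) by housing (x axis) for the 4 regions that rose and the 4 that fell with the smallest p; titles give the nearest gene and the distance to its start, and bars are means. No panel has an EE point within the range of the SH points.

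The RNA of the genes beside these regions was measured in other libraries. The 36 called regions had 36 different nearest protein-coding genes, and 22 of these were tested in female RNA. None was called (0.0% of the 14587 genes tested were), and 4 had an unadjusted p under 0.05 in edgeR, as did 8.67% of all genes. Those 4 were Arc, Btg2, Gbe1 and Slc9a9. Arc RNA had a lowest, median and highest value of 19.1, 23.1 and 36.9 CPM in EE and 5.26, 16.97 and 23.9 CPM in SH, a log2 fold change of 0.71 ± 0.30. Btg2 RNA had 2.24, 4.46 and 5.59 CPM in EE and 1.55, 2.78 and 3.90 CPM in SH (0.68 ± 0.24). At both genes the RNA values overlapped between groups and were on average higher in EE, where the ATAC values of the region were lower. In male RNA the log2 fold changes of Arc and Btg2 were 0.088 ± 0.41 and -0.49 ± 0.39. Neither was called there (0.0411% of 14597 genes were) or had an unadjusted p under 0.05 (8.03% did). Cttnbp2, nearest to the region with the smallest p, had a log2 fold change of 0.092 ± 0.051 in RNA. Of the 22 genes, 12 had positive and 10 negative RNA log2 fold changes.

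In males, 0 of 48814 tested regions were called in edgeR, as were 0.0% of all 192834 regions. DESeq2 also called 0 of them, with 3464 given no adjusted p, where it called 7 of all regions (0.0036%). At an unadjusted p under 0.05 there were 2622 regions (5.37%, against 4.54% of all regions), of which 1904 were higher and 718 lower in EE (2.62% and 1.92% of all regions were). The smallest adjusted p was 0.58. It belonged to a region 26.1 kb downstream of the start of Mrgprd, a receptor gene of sensory neurons, with lowest, median and highest values of 10.6, 14.3 and 16.996 CPM in EE and 8.82, 9.93 and 11.3 CPM in SH (log2 fold change 0.45 ± 0.091). The EE and SH values overlapped there.

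The male regions named by p were the 5 with the smallest p in each direction. Groups did not overlap at 5 of them: those near Tubb4b-ps2, Ghsr, Gm24780, Fra10ac1 and Gm37491. The share over all regions was 0.123%, but a choice by p favours groups that do not overlap, so the 2 are not compared. The Ghsr region, 13.6 kb upstream of the ghrelin receptor gene, had 2.01, 2.21 and 2.88 CPM in EE and 0.903, 1.53 and 1.97 CPM in SH (lowest, median and highest), a log2 fold change of 0.70 ± 0.15. The region upstream of Fra10ac1 had 14.6, 16.3 and 17.6 CPM in EE and 18.5, 19.1 and 21.8 CPM in SH, a log2 fold change of -0.27 ± 0.065. Their adjusted p-values in edgeR were 0.80 and 0.85.

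A region was paired across tables with its best overlap where that covered at least 50% of the shorter region. The 27020 pairs tested in both tables took in 69.3% of the female and 55.3% of the male regions. The sign of the log2 fold change was shared by 51.6% of pairs, with positive values in 64.3% of pairs in females and 52.3% in males. Across pairs Pearson's r was 0.036, as a description over regions of the same libraries. Of the 36 regions called in females, 29 had a male partner: 14 of these had a male value of the same sign, and 1 had a male p under 0.05.

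At the chromosome 6 region near Gm23648 the male log2 fold change was -0.013 ± 0.49, and near Tas2r118 it was -0.034 ± 0.074. The sex by housing interaction called 0 of the 27020 pairs in edgeR, where 1 of all 110203 pairs was called (0.000907%). At an unadjusted p under 0.05 there were 2590 pairs (9.59%, against 8.49% of all pairs), and DESeq2 called 43, where it called 146 of all pairs. For Tas2r118 the female minus male difference was 0.68 with an adjusted p of 0.17, and for Gm23648 it was 2.22 with 0.49 (edgeR).

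**Figure D4:**
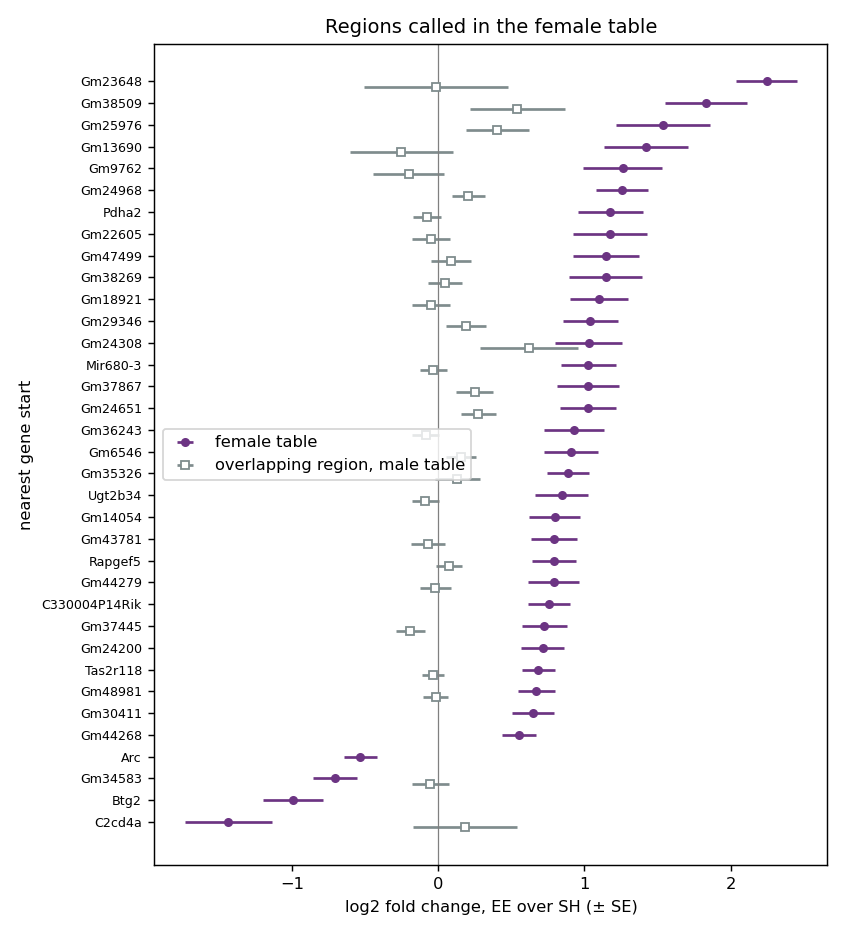
Log2 fold change of EE over SH with its SE (x axis) for 35 of the 36 regions called in the female table, by nearest gene (y axis), and for the 28 male regions paired with them (open squares). Female values run from -1.43 to 2.25; 13 of the 28 male values have the same sign.

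Of all these pairs, 165 had an unadjusted p under 0.05 in both tables (edgeR), and 100 of the 165 shared a sign. Pairs with the same sign and the smallest larger p included a region 26.02 kb from Gm18441 on chromosome 12, which had 9.95, 9.06 and 8.41 CPM in female EE and 7.34, 5.38 and 4.67 CPM in female SH. Its log2 fold change was 0.65 ± 0.17 in females and 0.26 ± 0.086 in males. On the lower side, the region upstream of Fra10ac1 had -0.27 ± 0.12 in females beside -0.27 ± 0.065 in males. The region 5.91 kb upstream of Eif1, a translation initiation factor gene, had -0.72 ± 0.31 in females and -0.59 ± 0.21 in males. Its male values were low, from 0.473 to 0.861 CPM in EE and from 0.645 to 1.29 CPM in SH. None of these regions passed the adjusted threshold in either table, with adjusted p-values between 0.13 and 1.0 (edgeR).

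Near immediate early genes the female regions were mostly lower in EE. There were 199 regions within 100 kb of the starts of 18 of the 20 genes listed, with a median log2 fold change of -0.20, beside 0.061 over all intergenic near-gene regions. Of the 199, 156 were below 0 and 43 above it. The 2 regions called were those beside Arc and Btg2 (1.01%, against 0.0473% of all regions). At an unadjusted p under 0.05, 29 were lower and 6 higher, where 3.48% and 4.52% of all regions were. The list was chosen with earlier results of these data known, so these counts describe it and are not a test of it. The median distance to the nearest gene start was 8.70 kb for these regions and 17.3 kb for all intergenic near-gene regions tested.

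The libraries of the 2 housing groups barely separated on this measure. The median log2 level of the 199 regions against the mean of libraries was -0.055, -0.13 and -0.056 in EE replicates 1 to 3 and -0.043, 0.093 and 0.25 in SH replicates 1 to 3. SH replicate 1 was next to the EE libraries and SH replicate 3 farthest from them. With SH replicate 3 omitted the median log2 fold change was -0.12. It stayed negative under every scaling tried, from -0.27 to -0.19.

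In males the 138 regions near 17 of these genes had a median of -0.017, with 75 below and 63 above 0, and 4 lower and 3 higher at an unadjusted p under 0.05. The male median was above 0 with EE replicate 2 (0.0051) or SH replicate 7 (0.013) omitted. The male libraries spread more widely than the female ones, from -0.11 to 0.26 in EE and from -0.19 to 0.12 in SH. Male EE replicate 3, highest here, had the lowest share of counts in intergenic near-gene regions, and SH replicates 5 and 6, lowest here, had 27.7 and 31.5 M counts, the fewest of the male libraries. The part of depth in these values was not tested.

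By gene, the female medians were negative for 15 of the 18. Nr4a1, an orphan nuclear receptor gene, had 39 regions, 34 of them lower, and a median of -0.26. Arc had 22 of 26 lower (-0.21), Junb, an AP-1 subunit, 13 of 13 (-0.24), and Dusp1, a phosphatase that turns off MAP kinases, 10 of 11 (-0.27). Klf4, Nr4a2 and Fosb had positive medians, of 0.18 over 4 regions, 0.073 over 2 and 0.061 over 1. In males 12 of 13 Arc regions and 13 of 16 Nr4a1 regions were below 0, with medians of -0.088 and -0.072. Regions near the same gene lie in a common stretch of chromosome and are not replicates. In female RNA, from other libraries, each of the 18 genes that was tested had a positive log2 fold change. The values ran from 0.23 ± 0.17 (Nr4a2) to 1.63 ± 0.40 (Fosb), and none was called (0.0% of all 14587 genes were). Fos, Fosb, Junb, Egr1, Egr2, Egr4, Npas4, Arc, Btg2 and Dusp1 had an unadjusted p under 0.05 in edgeR, as did 8.67% of all genes. The other genes tested did not. In male RNA the log2 fold changes took both signs, from -0.53 ± 0.36 (Egr4) to 0.29 ± 0.64 (Nr4a3), and none had an unadjusted p under 0.05.

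**Figure D5:**
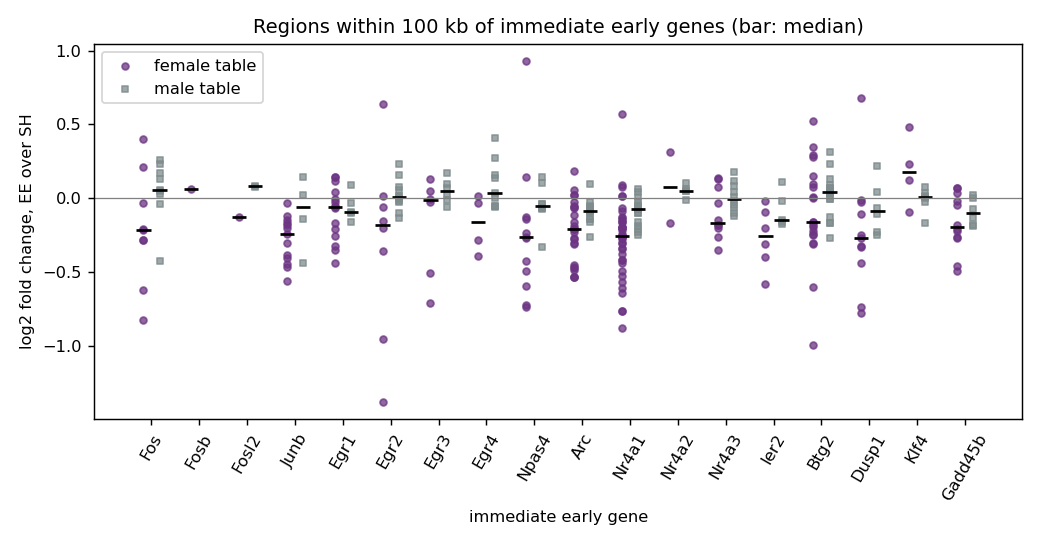
Log2 fold change of EE over SH (y axis) for each intergenic near-gene region within 100 kb of the immediate early gene on the x axis, in the female (circles) and male (squares) tables; bars are medians. Female medians are below 0 for 15 of 18 genes, and male values lie closer to 0.

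The most accessible region near an immediate early gene in either table was 17.7 kb upstream of Fos, which encodes an AP-1 subunit, on chromosome 12 at 85454655 to 85456225. It reached 33.2 CPM per kb in females and 15.98 in males. It had 47.8, 48.0 and 45.3 CPM in female EE and 48.1, 64.4 and 59.3 CPM in female SH, so SH replicate 1 was level with the EE libraries (log2 fold change -0.28 ± 0.10). In males the lowest, median and highest values were 29.1, 31.9 and 36.5 CPM in EE and 25.3, 32.4 and 34.0 CPM in SH, with a log2 fold change of 0.028 ± 0.068.

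The most accessible region near Nr4a3, another orphan nuclear receptor gene, was 1.15 kb upstream. It had 49.6, 49.2 and 48.3 CPM in female EE and 55.1, 55.0 and 56.8 CPM in female SH (-0.18 ± 0.096, adjusted p = 0.65, edgeR). The groups were tight and did not overlap, as in 12.8% of all female regions tested. Near Npas4, a neuron-specific activity-dependent transcription factor, a region 11.6 kb upstream had 23.6, 18.4 and 18.1 CPM in EE and 18.4, 27.0 and 26.9 CPM in SH (-0.27 ± 0.13). A second region upstream of Arc, at 5.65 kb, had 30.6, 33.9 and 24.5 CPM in EE and 32.1, 31.3 and 39.4 CPM in SH (-0.21 ± 0.11). The last 2 had groups that overlapped. Near Egr2, Egr3 and Egr4, zinc-finger factors of the same response, the most accessible female regions had log2 fold changes of -0.062, 0.046 and -0.035, within 1 SE of 0.

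The regions that hold the printed starts of Gm19497, Gm34455, Cistr and Gm41309 were lower on average in female EE, and none was called. Cistr and Gm41309 were picked after their values were seen, so the shared direction is not a result. The region that holds the Gm19497 start had 16.3 ± 1.61 CPM in female EE and 18.7 ± 2.08 CPM in SH (SD, n = 3 each), a log2 fold change of -0.20 ± 0.12. The one with Gm34455 had 12.3 ± 1.35 and 15.4 ± 4.79 CPM, and the one with Cistr 16.3 ± 1.54 and 21.9 ± 2.04 CPM (-0.42 ± 0.12, adjusted p = 0.20, edgeR). The one with Gm41309 had 5.45 ± 0.333 and 7.42 ± 1.04 CPM (-0.45 ± 0.18). Over all 195 female regions with a whole RefSeq window, 104 were lower and 91 higher in EE. Their median log2 fold change was -0.018, beside 0.061 in the other regions. They were also wider, with a median of 1067 against 414 bases, and more accessible, with 9.94 against 7.84 CPM per kb.

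Other lists of genes had no called region in either table. Near 17 circadian clock genes, 90 of 133 female regions were below 0, with a median of -0.12. It lay between -0.19 and -0.10 under the scalings tried, and was -0.062 with SH replicate 3 omitted. The male median over 112 regions was -0.0043, or 0.0058 when libraries were scaled by total counts alone, and ran from -0.046 to 0.040 when single libraries were omitted. The 2 clock regions with the smallest p were near Bhlhe41 and Bhlhe40, repressors in the clock loop (-0.57 ± 0.21 and -0.62 ± 0.25). Near delayed activity-regulated genes the female median was 0.058 over 108 regions, with 7 higher and 7 lower at an unadjusted p under 0.05, and -0.012 when libraries were scaled on intergenic near-gene regions alone. It was 0.034 with EE replicate 2 omitted. The lowest p was 81.0 kb upstream of Vgf, a neuropeptide precursor gene, with 2.70, 2.71 and 2.71 CPM in EE and 3.38, 4.63 and 4.93 CPM in SH (-0.67 ± 0.22, adjusted p = 0.32, edgeR).

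Near markers of neuron classes the female medians were 0.12 for upper-layer, 0.064 for deep-layer, 0.092 for GABAergic and 0.068 for striatal neurons, and the male ones 0.035, 0.039, 0.028 and 0.026. Each is of the same sign as the median over all intergenic near-gene regions. The deep-layer and striatal medians of females were -0.0045 and -0.00097 when libraries were scaled on intergenic near-gene regions alone. With EE replicate 1 omitted the striatal median was -0.020 and the deep-layer one 0.11, which was also 0.11 without SH replicate 1. The striatal median was 0.0085 without SH replicate 1, the upper-layer one 0.036 without SH replicate 3 and 0.074 without EE replicate 2, and the GABAergic one 0.059 without EE replicate 3. A region 47.4 kb upstream of Vip, an interneuron peptide gene, had log2 fold changes of 0.68 ± 0.29 in females and 0.41 ± 0.14 in males, with adjusted p-values of 0.52 and 1.0 (edgeR).

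Pan-neuronal genes had a female median of -0.00056 over 82 regions. They included the list region nearest to the threshold, 88.9 kb upstream of Nefm, a neurofilament gene, with 4.93, 4.76 and 4.98 CPM in EE and 3.75, 1.88 and 2.01 CPM in SH (0.92 ± 0.23, adjusted p = 0.087, edgeR). Medians near astrocyte, oligodendrocyte, and microglia and vascular markers were 0.0025, -0.022 and -0.071 in females over 29, 31 and 29 regions. In males they were 0.0026, 0.036 and -0.042. The signs of the pan-neuronal median in females and of the astrocyte medians in both tables changed with the scaling, the astrocyte ones to -0.070 and -0.022 on the intergenic near-gene regions alone and the pan-neuronal one to 0.015 by total counts. With single libraries omitted, the female medians ran from -0.035 to 0.038 for pan-neuronal, -0.024 to 0.079 for astrocyte, -0.097 to 0.026 for oligodendrocyte and -0.12 to 0.0033 for microglia and vascular genes. The oligodendrocyte median was above 0 without SH replicate 2 and the microglia and vascular one without SH replicate 3. No direction can be given for these 4 lists. The male astrocyte and the male microglia and vascular medians also took both signs, from -0.018 to 0.022 and from -0.084 to 0.014.

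The intergenic near-gene regions with the highest counts per kb were short, and none was called. The 95th percentile over all intergenic near-gene regions tested was 15.6 CPM per kb in females and 7.15 in males. Whether such high counts reflect open chromatin or another source of reads was not tested. The highest in both tables was on chromosome 12 at 97061433, 40.7 kb from Gm47397, with 473.8 CPM per kb in females over 317 bases and 514.8 in males over 314 bases. Its log2 fold changes were 0.029 ± 0.15 and -0.14 ± 0.14. The next in both tables, on chromosome 12 near Gm9075, had 460.8 in females and 160.8 in males. The third in females was next to Gm10800 on chromosome 2, with 300.2. The 5 highest female regions were 79 to 448 bases wide, and all had EE and SH values that overlapped.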

How the data were processed

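Open chromatin was measured by ATAC-seq in 19 libraries and nuclear RNA by RNA-seq in 24, grouped by sex, assay and housing from the labels. The values used are read counts per ATAC region and per gene, as deposited by the authors, with no normalization. Per the submitters' processing notes, the tools included STAR 2.5.4, SAMtools 1.3.1, bedtools, MACS2 2.1.1, DiffBind 3.2.2, edgeR and DESeq2 1.16.1, with the mm10 build. The merging of regions over libraries, the read counter and the base (0 or 1) of region starts are items not given in the sources used here.

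Each table was fitted whole with edgeR 4.0.16 in R 4.3.3 (TMM scaling, filterByExpr, robust quasi-likelihood F test), and p-values were Benjamini-Hochberg adjusted over all its regions or genes. A call is an adjusted p under 0.05. CPM values use TMM-scaled library sizes. Library totals ranged from 10.4 to 73.8 M counts, and a region of few counts has a wide error. Regions found in both ATAC tables were also fitted together for the interaction. The fit was tested on simulated data.

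Regions named are the called ones with the smallest p (up to 8 in each direction, or 5 where none was called), the 5 with the highest level per table, the 5 pairs in each direction with the smallest larger p, the most accessible region within 100 kb of each immediate early gene and the 2 with the smallest p for each other list. Members and all 11 lists were chosen with earlier results of these data known. DESeq2 1.42.0, other scalings, no count filter, other distance limits, a replicate block and the omission of each library were tried as alternatives. Sequences are RefSeq start windows on GRCm38.p6, matched by coordinates; 3 longer motifs also searched are not reported here. The samples' replicate numbers were not used as pairs. Of the called regions, 1 is counted but not reported here.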

Additional observations from a re-analysis of the deposited data

Results flagged for a closer look

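Within the male housing groups, 132 sets of library values were checked for a value whose gap to the nearest of the others is too large a part of the range (Dixon's ratio at 95%), and 8 were found. Chance gives about 1 in 20. The female groups of 3 libraries were not checked.

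The share of counts in intergenic near-gene regions was 17.069% in male EE replicate 3, below the next value of 17.8% in a group that reached 18.2%. Among the regions with the highest counts per kb, that near Gm11668 had 80.691 CPM in a single male EE library and at most 53.5 CPM in the others. The region near Gm43393 had 25.906 CPM beside at most 21.5 CPM.

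The region near Eif1 stood out in both housing groups, with 0.86139 CPM in a single EE library (next value 0.579) and 1.2922 CPM in a single SH library (next value 0.924). Another region near Vip, 50.4 kb downstream, had 3.1244 CPM in an EE library whose group otherwise started at 4.73 CPM. A region near Bhlhe40 had 2.6557 CPM in an EE library (next value 1.95), and the region near Gm18441 had 9.2276 CPM in an SH library (next value 7.81). None of these regions was called.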

How the results depend on the processing

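No called value changed sign under any alternative tried. The count of regions called in females ranged from 9 to 133 when a library was omitted, was 52 with DESeq2 (49 higher and 3 lower, with 23526 regions given no adjusted p; 0.0740% of all regions called), 50 with total-count scaling (0.0612% of all), and 25 with TMM factors from intergenic near-gene regions alone (0.0503% of all), an alternative chosen after seeing the data. The female median log2 fold change of 0.061 became -0.0083 under those factors. In males 0 intergenic near-gene regions were called under every alternative. Over all male regions DESeq2 called 7, the replicate block 1 and the fit without SH replicate 6 called 3. The interaction, with 0 calls, gave 43 with DESeq2 and from 0 to 3 when a library was omitted (3 without female EE replicate 1 or SH replicate 1, 1 without male EE replicate 4). Over all pairs, with 1 call in the main fit, DESeq2 called 146. The fits without female EE replicate 1, female SH replicate 1 and male EE replicate 4 called 7, 8 and 2 of all pairs.

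Same-numbered libraries were not clearly alike: they correlated from -0.11 to 0.075 in females and from -0.089 to 0.15 in males. Only 0 of 3 and 2 of 6 libraries correlated best with their own number. So few weak correlations cannot exclude that libraries of both housings were handled together. Groupings other than by replicate number were not tested. With a replicate block 16 female regions were called (0.0206% of all regions), 16 higher and 0 lower, 14 of them among the 36. The block adjusted p of the 4 that fell was 0.072 for Arc, 0.14 for Btg2 and 0.10 for both C2cd4a and Gm34583 (edgeR). The block called 3 interaction pairs, where it called 7 of all pairs, and the male median near immediate early genes was 0.014 in place of -0.017. With 3 libraries per female group and 36 calls, 4 of which stood in all 6 fits that omit a library, single libraries limit what can be called. Gene spans from the male RNA table were not tried, since its columns used here give no coordinates.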

Other observations

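Some genes had intergenic near-gene regions packed side by side. Atg7, which encodes an enzyme of autophagy, had the most in the female table: 62 regions, all upstream, between 114542854 and 114637326 on chromosome 6 and covering 46.3% of that 94.5 kb. All 62 log2 fold changes were below 0, with a median of -0.25, 12 had an unadjusted p under 0.05 in edgeR and none was called (smallest adjusted p = 0.32). Their summed accessibility had a lowest, median and highest value of 239 CPM, 297 CPM and 319 CPM in EE and 307 CPM, 346 CPM and 383 CPM in SH, so the groups overlapped. No male region met the rule there. Neighbouring regions are not independent, and the gene was chosen for its number of regions.

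The stretch around Slitrk1, a neuronal transmembrane protein gene, had 17 female and 49 male regions. The median log2 fold change was 0.20 in females, with 14 of 17 above 0, and -0.094 in males, with 37 of 49 below 0. None was called, and the difference between the tables was not tested for the stretch.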
